A study of Mus musculus with 2 samples.

Results

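Runx1 binding was examined around the genes of its own family, namely Runx1, Runx2 and Runx3, and around Cbfb, the gene of their common partner, in CD4+ CD8+ double-positive (DP) thymocytes of C57BL/6 mice. A peak was assigned to a gene when its centre lay in the gene body or within 100 kb on either side in the annotation of mouse assembly NCBIM37 (mm9). This window held 7 of the 3531 peaks of the Runx1 list, with 3 at Runx1, 2 at Runx3, 2 at Cbfb and 0 at Runx2. Chromatin of DP cells sorted from the thymus was precipitated with 10 μg of an antibody against Runx1, and an input library was made from DP thymocytes without antibody. Each library was amplified by 15 PCR cycles and sequenced on the AB SOLiD platform, and there was 1 library per condition, so a spread between replicates was not available and no test was made. The number of mice, and whether they were pooled, was not given in the sources used here. The study asked how promoters with long upstream antisense transcripts are regulated, and used Runx1 as a tissue-specific factor.

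RUNX proteins are transcription factors that contact DNA through a Runt domain, and Cbfb does not contact DNA itself but strengthens the binding of its RUNX partner. Each RUNX gene is transcribed from a distal promoter, far upstream, and a proximal promoter, and the resulting proteins differ at their N-terminus. Runx1 is required for blood stem cells and for thymocyte development, Runx3 acts in CD8+ T cells, where it represses Cd4, and Runx2 is best known as the regulator of bone formation.

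The RUNX motif was searched as TGTGGT on both strands, which reads ACCACA on the opposite strand, and its variant as TGCGGT. The sequences of 2 whole peaks are given because they were the only ones of the 7, apart from a peak in a 5′ UTR, to hold either form. Both are on the plus strand of NCBIM37, 5′ to 3′, with the match in capitals. The Runx1 peak of the intron downstream of the distal promoter lies at chr16:92801971-92802157, and the Cbfb peak with the motif at chr8:107822784-107822970.
Runx1 peak 3: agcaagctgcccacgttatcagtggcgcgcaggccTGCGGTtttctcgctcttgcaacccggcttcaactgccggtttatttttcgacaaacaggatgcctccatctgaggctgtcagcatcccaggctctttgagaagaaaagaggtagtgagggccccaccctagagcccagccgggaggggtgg
Cbfb peak 1: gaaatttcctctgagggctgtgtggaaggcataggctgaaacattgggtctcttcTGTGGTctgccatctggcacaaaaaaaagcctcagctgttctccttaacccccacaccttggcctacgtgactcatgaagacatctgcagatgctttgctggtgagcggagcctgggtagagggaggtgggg

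For the 5′ UTR peak, at chr16:92697071-92697257, the 30 bases around the variant are given in the direction of Runx1 transcription, from the minus strand of chr16:92697116-92697145.
Runx1 peak 1: cgctccacctgcTGCGGTtacacggtgctc

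The distal promoters of the 3 RUNX genes shared a stretch of 18 bases that holds 2 matches of the motif. It is given with its neighbouring bases in the direction of transcription, with every match of either form in capitals. The positions are chr16:92826270-92826299 (minus strand), chr17:44951532-44951561 (minus strand) and chr4:134676418-134676447 (plus strand).
Runx1: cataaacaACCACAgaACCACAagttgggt
Runx2: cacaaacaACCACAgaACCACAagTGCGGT
Runx3: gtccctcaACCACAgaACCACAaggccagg

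In the peak list as a whole, scores ran from 14 to 129 with a median of 18 and quartiles at 16 and 23, and 3530 peaks were 187 bp wide. The meaning of the score is not named in the list, and it is used here only to place peaks within the list. The input list held 740 peaks, of which none fell in the 4 windows, and 35 of the 3531 Runx1 peaks were overlapped by an input peak. Neither list gives read counts, which leaves depth unknown, and a gene without a peak cannot be told from a gene below the reach of the library. The paper and the sample labels give different catalogue numbers for the Runx1 antibody, and that in the paper is also its number for the H3K79me2 antibody. The lists hold no expression values, so the identity of the sorted cells was not checked against marker genes.

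Of the 4 genes, 3 had a Runx1 peak in the window, as compared with 38.5% of 22271 protein-coding genes counted in the same way. The windows differ in length, since they follow the gene bodies, and measured 425 kb for Runx1, 519 kb for Runx2, 257 kb for Runx3 and 247 kb for Cbfb, as compared with a median of 215 kb over all genes. At the mean density of the list, 0.133 peaks per 100 kb of the assembly, these windows would hold 0.56, 0.69, 0.34 and 0.33 peaks, respectively. Expressed per 100 kb, Cbfb had 0.809 peaks, Runx3 had 0.777 and Runx1 had 0.707. At least this density was reached by 11.1% of the genes for Cbfb, 11.4% for Runx3 and 12% for Runx1. These shares moved with the flank: at 200 kb they were 24.3, 24.8 and 20%, respectively, and at 50 kb the share was 4.94% for Runx3, while Cbfb had no peak left. Within gene bodies alone the share was 3.93% for Runx1, and Runx3 and Cbfb had no peak. Cbfb also had none above the upper quartile of score, and Runx3 had none once peaks of mostly repeated sequence were left out, which left 2 of the 4 genes with a peak, as compared with 35.0% of all genes under that restriction. By number alone, 4.2% of genes had 3 or more peaks in the window and 13.4% had 2 or more. The absence of peaks at Runx2 was the commonest value, shared with 13686 genes in all, and among the 953 genes with a window of at least 400 kb it was found for 561, or 58.9%.

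**Figure D1:**
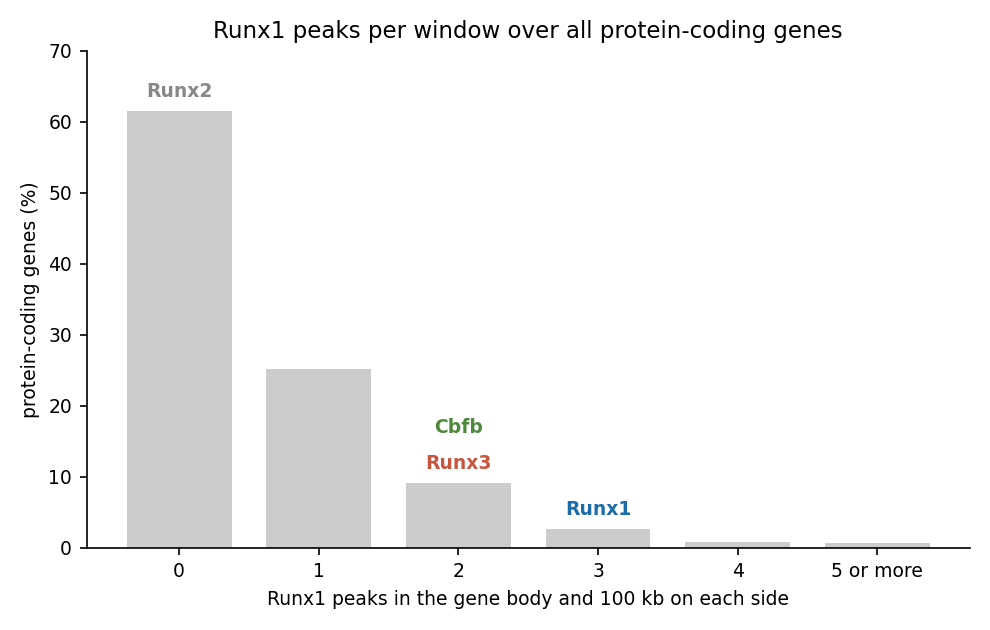
The bars give the percentage of all 22271 protein-coding genes (y axis) by the number of Runx1 peaks in the gene body and 100 kb on each side (x axis). The member genes are named above the bar of their own count: Runx2 at 0, Runx3 and Cbfb at 2, Runx1 at 3.

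The arrangement of the peaks differed from gene to gene. All 3 peaks of Runx1 lay inside its body, whereas the peaks of Runx3 and of Cbfb lay downstream of the 3′ end, and none of the 4 genes had a peak in the 100 kb upstream of its most upstream start site. A start site was called distal or proximal by its position in the gene, and start sites less than 5 kb apart were taken as 1 promoter, which gave 7 promoters for the 4 genes.

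**Figure D2:**
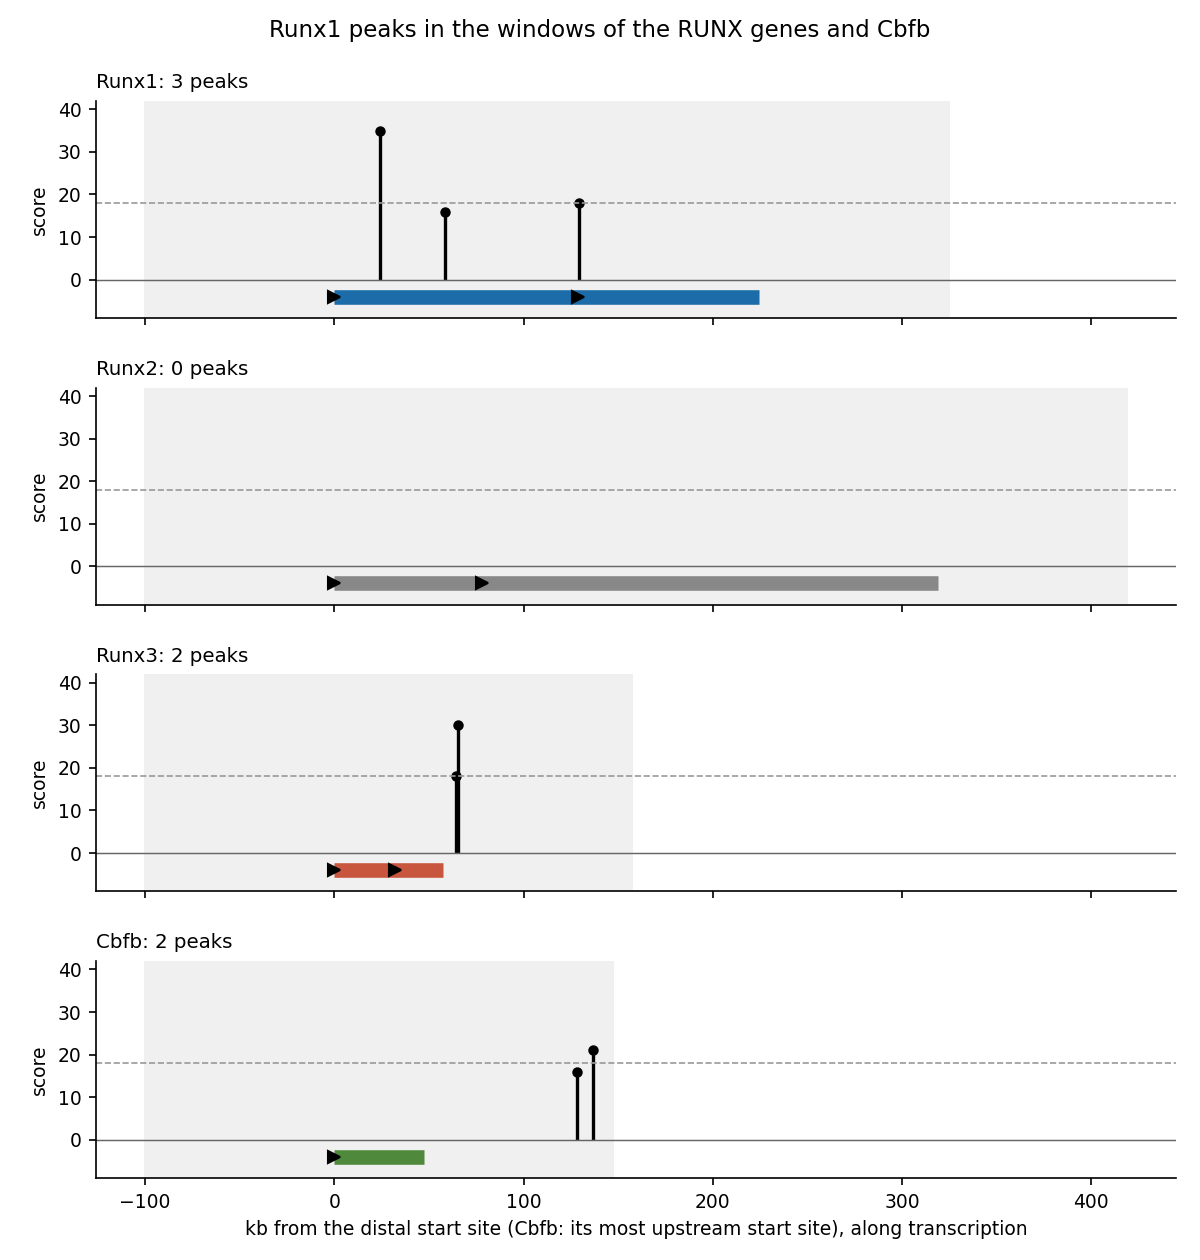
Each panel is 1 gene drawn along its direction of transcription, with distance from its most upstream start site in kb on the x axis and the peak score on the y axis. Grey shading marks the window, the coloured bar the gene body, arrowheads the promoters, stems the Runx1 peaks and the dashed line the median score of 18 over all peaks. Peaks stand inside Runx1 and past the 3′ ends of Runx3 and Cbfb, and the Runx2 panel has none.

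Runx1 (ENSMUSG00000022952) occupies 225 kb of the minus strand of chromosome 16, from 92601712 to 92826311, with its distal start site at 92826311 and the most upstream proximal start site at 92697573. The highest score among all 7 peaks, 35, belonged to a peak in the intron between these promoters, from 92801971 to 92802157. Its centre lay 24.2 kb downstream of the distal start site and 23.8 kb downstream of the start codon of the distal transcripts. A score of 35 or higher was reached by 9.29% of all Runx1 peaks. The intron is known in the mouse for an enhancer active in blood stem and progenitor cells, which is named after its distance from the start codon, and whether the peak is this element was not tested. The peak held no TGTGGT but held TGCGGT on the plus strand from 92802006 to 92802011, 56 bp from its centre. Its GC content was 58.3%, just above the 75th percentile of 57.8% over all peaks, with 9 CpG.

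The peak at the proximal promoter, from 92697071 to 92697257, had a score of 18, which 56.8% of the peaks reached. Its centre lay in the 5′ UTR, 409 bp downstream of the proximal start site and 1166 bp upstream of the next start codon. This was the single peak within 5 kb of a start site among the 4 genes. With 63.6% GC and 17 CpG it was the richest of the 7 peaks in both, as compared with medians of 54.0% and 4 over all Runx1 peaks. TGCGGT was found 34 bp from the centre on the minus strand, from 92697128 to 92697133, which is the strand of the Runx1 transcript. The remaining Runx1 peak, from 92767616 to 92767802, lay in the same intron as the peak with a score of 35 and 34.4 kb farther downstream. It had a score of 16, which 99.5% of the list reached, and none of the motifs searched. The nearest peak outside the window was 286 kb upstream of the gene, with a score of 16, from 93112139 to 93112325.

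Runx2 (ENSMUSG00000039153) covers 319 kb of the minus strand of chromosome 17, from 44632936 to 44951746, and had no Runx1 peak in its body or within 100 kb. The nearest peak, from 45625899 to 45626085, had a score of 59 and was 674 kb upstream of the distal start site at 44951746 and 752 kb from the proximal start site at 44873597. That peak was 14105 bp from a start site of Spats1, its nearest protein-coding gene. The body of Supt3h, which encodes a subunit of a histone acetyltransferase complex, runs over the distal promoter of Runx2 on the opposite strand and had no peak in the window either. The window held 421 matches of TGTGGT, or 0.81 per kb, as compared with 0.75 per kb over the assembly.

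Runx3 (ENSMUSG00000070691) is a compact gene of 57.3 kb on the plus strand of chromosome 4, from 134676567 to 134733905. Its peaks, from 134740679 to 134740865 with a score of 18 and from 134741657 to 134741843 with a score of 30, lay 6.87 and 7.84 kb past the 3′ end, and their centres were 978 bp apart. A score of 30 or higher was reached by 14.0% of the list, and 90 of the 3531 peaks had a neighbour within 1 kb. The Runx3 start site nearest to the pair was the proximal one at 134708411, 32.4 kb from the closer peak, and on the other side the nearest was that of Clic4, a chloride intracellular channel gene, 87.0 kb from the closer peak. Neither peak held the RUNX motif, its variant or any other motif searched.

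The Runx3 peaks stood apart from the other 5 in sequence. Of the 156 runs of 32 bases in each peak, 132 and 124 also occurred elsewhere in the assembly, in up to 1724 and 1349 places. By contrast, 70.3% of all Runx1 peaks, the 3 Runx1 peaks among them, had no such run elsewhere, and 19.5% had more than 1/2 of their runs elsewhere. The 32 bases at the centre of each Runx3 peak occurred once. The part of repeated sequence in these peaks was not tested. Without the peaks that had more than 1/2 of their runs elsewhere, a restriction chosen after the values were seen, Runx3 had 0 peaks in its window, and the counts of the other genes were as before.

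Cbfb (ENSMUSG00000031885) spans 47.3 kb of the plus strand of chromosome 8, from 107694574 to 107741886. Its window is the most gene-dense of the 4, with 13 other protein-coding genes as compared with 1 in each of the others, and both peaks lay in those neighbours. The peak from 107822784 to 107822970, with a score of 16, was 81.0 kb past the 3′ end of Cbfb. Its centre was in an intron of E2f4, a transcription factor gene of the cell cycle, 1314 bp downstream of the E2f4 start site, and the peak overlapped a coding exon. The start site of Exoc3l, transcribed in the opposite direction, was 2879 bp away. The peak from 107830965 to 107831151, with a score of 21 that 38.7% of the list reached, lay in a coding exon of Elmo3, which encodes an adaptor in the activation of Rac. It was 1406 bp downstream of the Elmo3 start site, 89.2 kb past the end of Cbfb and 8.18 kb from the peak in E2f4. The nearest peak to the Cbfb start site was 128 kb away. The rule thus assigned these peaks to Cbfb by distance only, since 3 other genes had a start site within 5 kb of them.

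The peak in E2f4 was the single peak of the 7 with TGTGGT, on the plus strand from 107822839 to 107822844, 36 bp from its centre. It also held CAGCTG, an E-box bound by E proteins of the basic helix-loop-helix family, 4 bp from the centre. The peak in Elmo3 held CAGCTG 18 bp from its centre and no RUNX motif.

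Scores of the 7 peaks thus ran from 16 to 35, with a median of 18 that equalled the median of the list. Of the 7, 3 were above that median and 2 above the upper quartile, the Runx1 intron peak and the Runx3 peak with a score of 30.

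**Figure D3:**
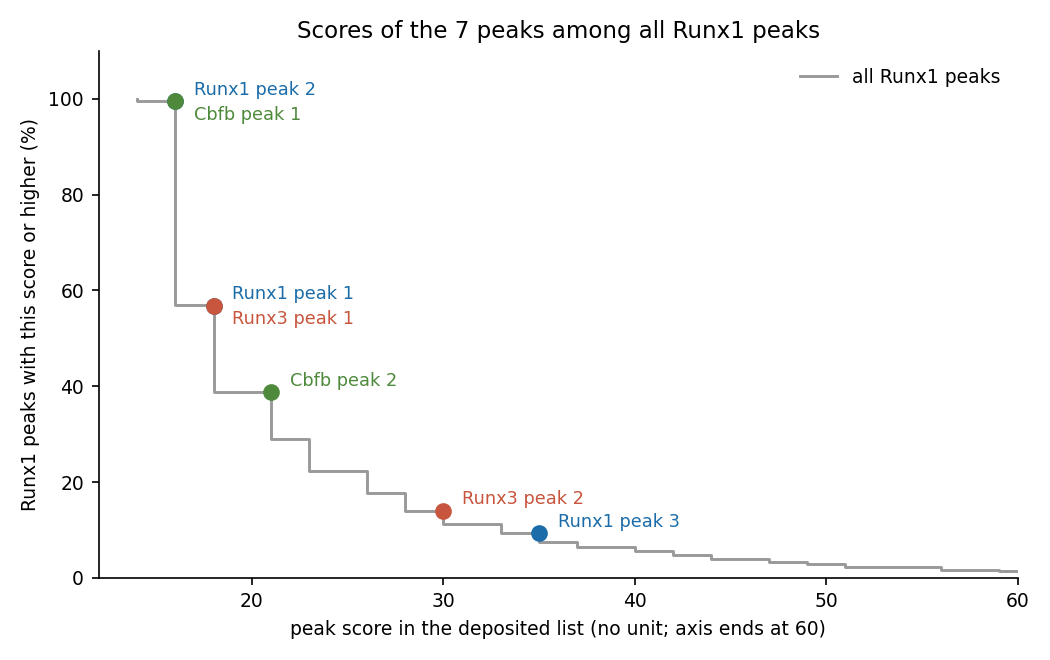
The line gives the percentage of all Runx1 peaks with at least a given score (y axis) against the score in the deposited list (x axis, no unit), and the highest scores, up to 129, lie beyond the axis. The 7 member peaks are marked on it, from 99.5% for the peaks with a score of 16 to 9.29% for Runx1 peak 3, and points with equal scores lie on top of each other.

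TGTGGT was found in 1 of the 7 peaks, or 14.3% (exact Clopper-Pearson 95% confidence interval 0.361 to 57.9%), as compared with 25.5% of all Runx1 peaks (24.1 to 27.0%) and 13.6% of regions of the same width placed 1 kb to either side of all peaks. Of the 14 such regions beside the 7 peaks themselves, 2 held it, the same share as in the peaks. The 2 Runx3 peaks lie 978 bp apart, so 1 region beside each of them largely covers the other peak. The 14 regions are thus not all outside the peaks. TGCGGT was found in 2 of 7, or 28.6% (3.67 to 71.0%), as compared with 9.4% of all peaks and 1.76% of the flanking regions. It contains a CpG, and the 2 peaks that hold it had 17 and 9 CpG, as compared with a median of 4 over all peaks. The flanking regions were not matched for GC or CpG, and the part of base composition in these shares was not tested. With either form counted, the share was 3 of 7, or 42.9% (9.9 to 81.6%), beside 32.5% of all peaks. Of the 14 regions beside the 7 peaks, 0 held TGCGGT and 2 held either form. The intervals over 7 peaks contain the shares of the whole list, so at this number a difference from the list was not detectable. These intervals cover counting error only. CAGCTG was found in 2 of 7 peaks, 0 of the 14 regions beside them and 20% of the list. The Ets factor motif AGGAAG was in 0 of the 7, which allows a share of up to 41.0% by the same interval, in 3 of the 14 regions beside them and in 31.2% of the list. The motif of GATA factors, searched as AGATAA, was also in 0 of the 7 and in 5.41% of the list.

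**Figure D4:**
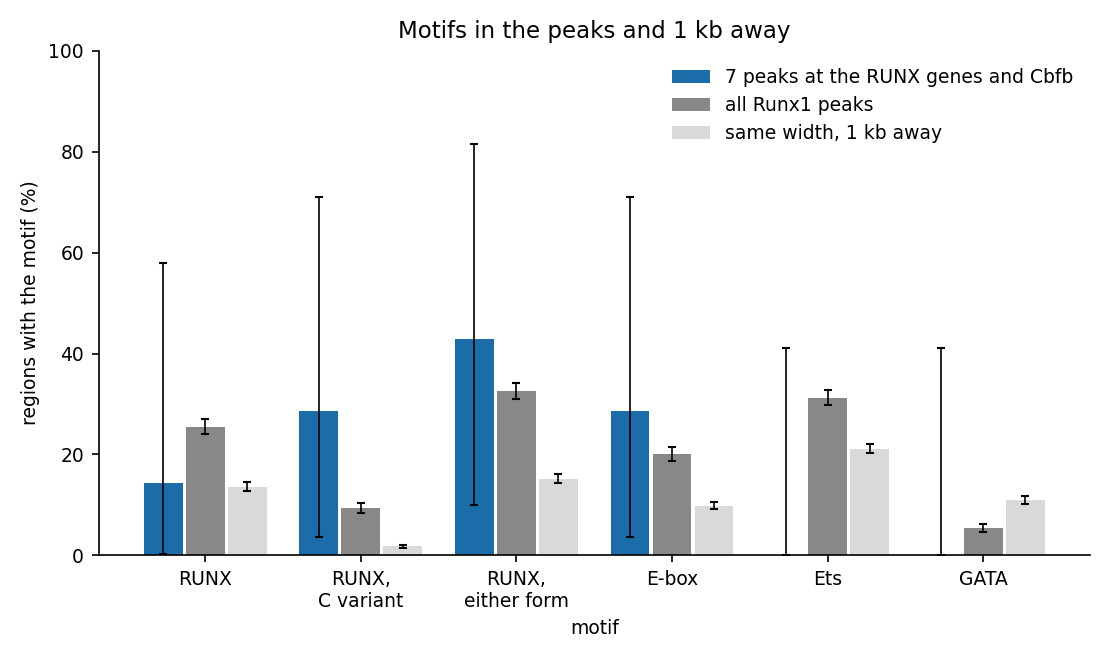
Bars give the percentage of regions with each motif (y axis) for the 7 member peaks, all 3531 Runx1 peaks and regions of equal width 1 kb away, and error bars are exact Clopper-Pearson 95% intervals. Over the 7 peaks the intervals are wide, from 0.361 to 57.9% for the RUNX motif, and where no bar is drawn the share is 0.

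Matches of the motif were far more numerous than peaks. The 4 windows together, 1448 kb, held 1333 matches of TGTGGT, with 425 at Runx1 (1.0 per kb), 421 at Runx2 (0.81 per kb), 257 at Runx3 (1.0 per kb) and 230 at Cbfb (0.93 per kb). Of these, 1 lay inside a Runx1 peak, and over the assembly 1 match in 1824 did. The Runx2 window had the fewest matches per kb of the 4 and the lowest GC content, 43.1%. Whether either bears on its lack of peaks was not tested.

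Promoters were then taken in turn. Of the 4 genes, 1 had a Runx1 peak within 5 kb of a start site, as compared with 5.01% of 22158 protein-coding genes, and of the 7 promoters it was the proximal promoter of Runx1 alone. That peak has the median score of 18, and with only peaks above the median 0 of the 4 genes had one within 5 kb, as compared with 1.91% of all genes. The nearest peak was 24.2 kb from the distal promoter of Runx1, 32.4 and 64.2 kb from the proximal and distal promoters of Runx3, 128 kb from that of Cbfb, and 674 and 752 kb from the distal and proximal promoters of Runx2.

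**Figure D5:**
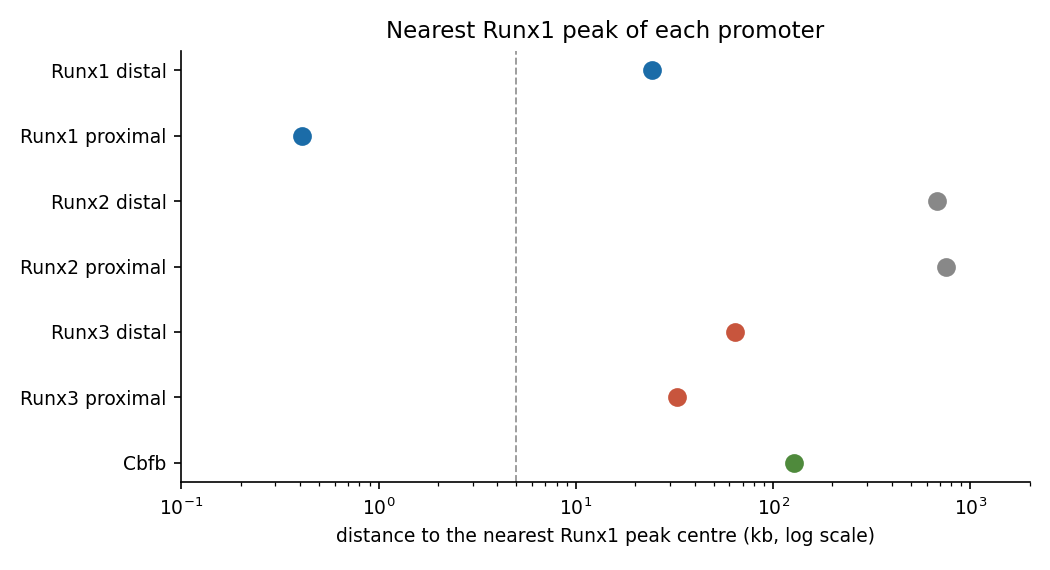
Each point is a promoter, with the distance from its most upstream start site to the centre of the nearest Runx1 peak on the x axis (kb, log scale) and the dashed line at 5 kb. The proximal promoter of Runx1, at 0.409 kb, is the single point to the left of the line.

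From 250 bp upstream to 50 bp downstream of the start site, TGTGGT was found at the distal promoters of all 3 RUNX genes and at none of the proximal promoters nor at that of Cbfb. Such a window held the motif for 14.5% of 43256 start sites of protein-coding transcripts, and at least 2 matches for 1.7%. The distal window of Runx1 had 2 matches, beginning 20 and 28 bp downstream of the start site, that of Runx3 had 2, beginning 141 and 133 bp upstream, and that of Runx2 had 1, beginning 174 bp upstream. The proximal windows without the motif included the GC-rich ones of Runx1 (69.0% GC) and Runx3 (77.7% GC).

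The longest run of bases common to the 3 distal promoters, searched within 500 bp of the start site after the matches had been seen, was the stretch of 18 bases shown above. Its 2 matches of the motif lie on the same strand and begin 8 bases apart. The run occurred at 3 places in chromosomes 1 to 19, X and Y, which are the distal promoters of Runx1, Runx2 and Runx3, and 3 of 22112 genes had it within 500 bp of a protein-coding start site. Its first base was 18 bp downstream of a start site in Runx1, 21 bp downstream of the start site at 44951576 in Runx2, and 143 bp upstream in Runx3. From the most upstream Runx2 start site, at 44951746, it was 191 bp downstream and thus outside the promoter window above, so the match 174 bp upstream in Runx2 is not part of the run. No Runx1 peak was called at any of these copies, and the nearest peaks were 24.2, 674 and 64.3 kb away. Over the assembly, 1388 pairs of the motif with this spacing and orientation were found, and 1 of them lay inside a Runx1 peak. That is 0.072% of the pairs, near the 0.0548% of all matches of the motif that lay inside a peak.

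The partners of RUNX proteins were described in the same way over a list of 24 genes. These encode corepressors, acetyltransferases, members of repressive complexes, modifiers and other transcriptional regulators that work with Runx1. A peak was found in the window of 14 of 24, or 58.3% (exact Clopper-Pearson 95% confidence interval 36.6 to 77.9%), with 38.5% over all genes, and within 5 kb of a start site for 1 of 24, or 4.17%, with 5.01% over all genes. The windows of the list were longer, with a median of 251 kb as compared with 215 kb over all genes, and the part of window length in the shares was not tested. With only the 1367 peaks above the median score, 7 of 24 genes had a peak, or 29.2% (same interval 12.6 to 51.1%), with 17.7% over all genes. Neighbouring genes share peaks, so the genes of the list are not independent.

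The gene with a peak at its start was Aes, which encodes a short relative of the Groucho/TLE corepressors that bind RUNX proteins. Its window held 3 peaks, with scores of 54, 42 and 35, and the one with a score of 54 was centred 68 bp downstream of its start site. The same 3 peaks lay in the window of the neighbouring corepressor gene Tle2, whose start site was 8702 bp from the nearest. Most peaks were found for Hdac1, a histone deacetylase gene, and Ets1, whose product binds DNA together with Runx1, with 4 each. Scores at Hdac1 ran from 18 to 44, with the nearest peak 15992 bp from a start site, and all 4 peaks of Ets1 had a score of 16, with the nearest at 50.1 kb. Myb, a regulator of progenitor and thymocyte survival, also had 3 peaks, with scores of 56, 28 and 21 and the nearest at 68.3 kb. Of the 10 genes that had none, 2 were genes of transcriptional regulators (Tal1 and Lmo2) and 2 were the kinase genes Hipk2 and Cdk6. Another 3 belonged to the corepressor and ETO families (Tle1, Tle4 and Runx1t1), and 3 to repressive complexes (Sin3a, Hdac3 and Suv39h1).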

How the data were processed

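A Runx1 ChIP library and an input library of DP thymocytes were analysed. What the authors deposited was a peak list per library, in which each peak has a position and a score of unnamed meaning. Peak calling with HOMER on mm9 is given in the submitters' processing notes. The aligner for this library is not given in the sources used here. Positions are given 1-based and were set against the NCBIM37 assembly and its GENCODE annotation. Windows covered the gene body, from all transcripts of a gene, and 100 kb on each side, and start sites were those of protein-coding transcripts. Motifs were counted on both strands over chromosomes 1 to 19, X and Y. Runs of 32 bases were counted on both strands over all sequences of the assembly. Spi1 was matched through RefSeq synonyms of assembly GRCm38.p6, whose coordinates were not used. Kat6a is named Myst3 in the annotation.

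The genes named were the 4 members, genes holding a peak or with the nearest start site on each side, genes with a peak in their body or within 5 kb of a start site in a member window, and, of the partners, those with a peak within 5 kb of a start site and the 3 with the most peaks, ties included. Neighbours of peaks outside the windows, Supt3h and the 10 partner genes without a peak fall outside this rule and were named after their values were seen. Members, lists and alternatives were chosen with earlier results of these data known. Counting was tested on simulated data, and 200 of 200 implanted windows and 198 of 198 start sites were found. Shares were given exact Clopper-Pearson intervals. Python 3.11.15, numpy 2.4.6, pandas 2.3.3, scipy 1.17.1, pysam 0.24.0 and matplotlib 3.10.9 were used.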

Additional observations from a re-analysis of the deposited data

How the results depend on the processing

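Of 109 values under alternative settings, 84 were equal to the reported value or within 1.5 times of it, and 25 moved. Runx2 had no peak under any setting, flanks of 200 kb included, and no promoter but that of Runx1 had a peak within 1, 2.5 or 10 kb. With only peaks above the median score, or above the upper quartile, Runx1 had 1 peak, Runx3 had 1, and Cbfb had 1 and 0, respectively. Above the median, 0 peaks were left near a Runx1 start site and 7 of the 24 partner genes had a peak, with 17.7% of all genes. Within the gene body, Runx3 and Cbfb had 0 peaks, and with a flank of 50 kb Cbfb had 0. The share of genes with at least the density of Runx1 was 3.93% for gene bodies and 20% for a flank of 200 kb. For Runx3 it was 4.94% for 50 kb, 24.8% for 200 kb and 100% for gene bodies, and for Cbfb 24.3% for 200 kb and 100% for 50 kb, for gene bodies and above the upper quartile of score, where no peak was left. Without peaks of mostly repeated sequence, chosen after seeing the data, Runx3 had 0 peaks (100%). The motif was in 3 of 7 peaks as TGTGGT or TGCGGT and in 0 as TGTGGTT. With the longer variant also counted, as TGTGGTT or TGCGGTT, it was in 2 of 7 peaks, with 15.4% of all Runx1 peaks. A partner gene had a peak within 5 kb of a start site in 1 of 24 cases. These changes follow from fewer or more bases, peaks or motif letters being counted. Leaving out peaks overlapped by an input peak, or keeping only peaks with a unique centre, moved no value beyond 1.5 times. Depth was not known for either library, so how deeply a gene without a peak was covered cannot be said. No replicate could be left out. No paired analysis was possible because the ChIP and the input are 1 library each.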
